A study of Homo sapiens with 18 samples.

Results

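The 10 genes described here are the Notch receptors NOTCH1, NOTCH2 and NOTCH3, the ligands JAG1, JAG2, DLL1 and DLL4, and the target genes HES1, HES5 and HEY1. They are 10 of 19103 protein-coding genes on chromosomes 1 to 22 of the GENCODE annotation of hg38, and were chosen by name. Every peak that shared at least 1 bp with a gene body extended by 10 kb on either side was taken as a peak of that gene. The peaks came from ChIP-seq of HEK293T cells, a line of human embryonic kidney origin that carries the SV40 large T antigen. One antibody was against H3K27ac, a histone acetylation that marks promoters and enhancers in use, and the other against CTCF, which binds DNA and holds the ends of chromatin loops. Cells were either untreated (CTRL) or kept for 1 day in 1 mM valproic acid (VPA), which blocks histone deacetylases, and each antibody had 3 replicate libraries per treatment. The labels do not say whether the replicates were separate cultures, so the p-values measure the spread between these libraries.

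Notch receptors sit in the cell membrane and are activated by Jagged and Delta-like ligands on a neighbouring cell. Cleavage by ADAM proteases and gamma-secretase then frees the intracellular part of the receptor, which enters the nucleus and turns on genes through the DNA-binding protein RBPJ and its coactivators of the MAML family. HES1, HES5 and HEY1 are among the best known of these genes, and encode basic helix-loop-helix repressors that hold back differentiation. Valproic acid has been described as an activator of Notch signalling in some tumour cells, and the comparison of CTRL with VPA asks whether acetylation or CTCF binding at these genes differed after treatment.

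The promoters of 8 members were found in the RefSeq promoter table (GRCh38.p14). The 250 bases before the start of HES1, HES5 and DLL4 are shown because the changes described below turn on HES1 and DLL4, and because HES5 is the target with the least acetylation. Capitals mark the RBPJ core TGGGAA, or TTCCCA where it reads on the other strand.
HES1 promoter, chr3:194135898-194136147, plus strand: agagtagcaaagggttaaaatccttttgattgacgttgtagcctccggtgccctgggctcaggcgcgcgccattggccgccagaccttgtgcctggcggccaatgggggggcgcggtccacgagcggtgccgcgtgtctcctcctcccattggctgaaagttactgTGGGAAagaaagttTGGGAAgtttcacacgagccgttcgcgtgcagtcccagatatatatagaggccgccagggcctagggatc
HES5 promoter, chr1:2530264-2530513, minus strand: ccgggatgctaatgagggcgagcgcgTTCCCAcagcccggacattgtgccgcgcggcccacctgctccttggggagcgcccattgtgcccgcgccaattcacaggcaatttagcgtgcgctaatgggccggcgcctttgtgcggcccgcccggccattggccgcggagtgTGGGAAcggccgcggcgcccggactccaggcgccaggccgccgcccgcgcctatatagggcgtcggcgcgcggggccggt
DLL4 promoter, chr15:40929090-40929339, plus strand: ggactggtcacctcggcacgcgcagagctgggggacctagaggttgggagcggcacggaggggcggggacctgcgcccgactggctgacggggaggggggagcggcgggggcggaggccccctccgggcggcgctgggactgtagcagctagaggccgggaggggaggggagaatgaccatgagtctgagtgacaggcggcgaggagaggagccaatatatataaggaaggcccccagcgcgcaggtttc
HES1 held the core at positions -84 and -70 from its start, and HES5 at -224 and -80. No other of the 8 promoters held it, DLL4 included, and of 33725 RefSeq promoters on these chromosomes 20.7% held at least 1 and 2.84% held 2 or more. A further motif, the N box CACNAG that HES proteins bind, searched on both strands, occurred 3 times before HES1 and once before NOTCH3, against 32.0% of all promoters with any. All 8 promoters were rich in CpG, with 17 to 38 CpG in 250 bases where the median promoter had 11.0. Their G and C content lay between 59.2% and 81.6%, against a median of 58.4%. These matches describe the sequence, and binding of RBPJ or HES proteins was not measured.

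Peak lists hold no read totals, so read depth is unknown. H3K27ac peaks numbered 26299 to 29799 per CTRL library and 38441 to 40992 per VPA library, and CTCF peaks 36469 to 58782 over all libraries. Both replicate 1 libraries of each antibody stood apart from replicates 2 and 3, with 21.3% to 32.1% of their peaks on the lowest local background of the library, against 3.49% to 13.6%. Of 6 genes known to be expressed in HEK293 cells, 5 had an H3K27ac peak within 1 kb of their start in all 3 CTRL libraries (VIM, KRT8, KRT18, NEFL and NEFM) and PAX2 had none. None of 8 genes of blood, liver, pancreas, muscle, astrocytes or endothelium had a peak there in a CTRL library, and in VPA only MYOD1 had one, in 2 of 3 libraries. KRT8 and KRT18 had identical folds in all 6 libraries, so they do not count as separate markers.

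H3K27ac peaks of the 6 libraries merged into 35 regions at the 10 genes, and 17 of these had a peak in all 6 libraries. The 35 included no region with peaks in all 3 VPA libraries and no CTRL library, and none of the reverse kind. Over the whole genome, 2284 of 55382 H3K27ac regions were found only in VPA and 77 only in CTRL. Each region was given the fold enrichment of its highest summit over the local background, as called in each library. A second measure, the relative summit height, divided the fragments over the summit by the background coverage of the library and so leaves out the local background. At the canonical starts, each replicate 1 library with an H3K27ac peak had a higher local background than replicates 2 and 3. For example, at NOTCH1 it was 59.4 and 50.9 fragments against 7.89 to 13.6, at heights of 71.9 and 81.3 against 55.2 to 68.8. Lower folds of replicate 1 at these starts thus need not mean lower summits. Without the replicate number in the model, limma on log2 fold enrichment called no member region and no region of the genome (0% higher and 0% lower of 18407 regions, with 301 at an unadjusted p under 0.05). In this mark the replicate numbers were taken to pair the libraries, although replicates 2 and 3 could not be told from each other. The pairing was judged from these same values. With the replicate number as a block, 4.73% of all regions were called higher in VPA and 11.8% lower. Of the 17 member regions, 0 were called higher and 3 lower under the block (at HES1, HEY1 and NOTCH2), and their median log2 change was -0.16 against -0.14 over all regions. In bulk chromatin, a lower level in every cell and a loss in some of the cells cannot be told apart. No spike-in is mentioned in the sources used here, so a value compares a region with the background of its own library and not the total acetylation of the cells.

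**Figure D1:**
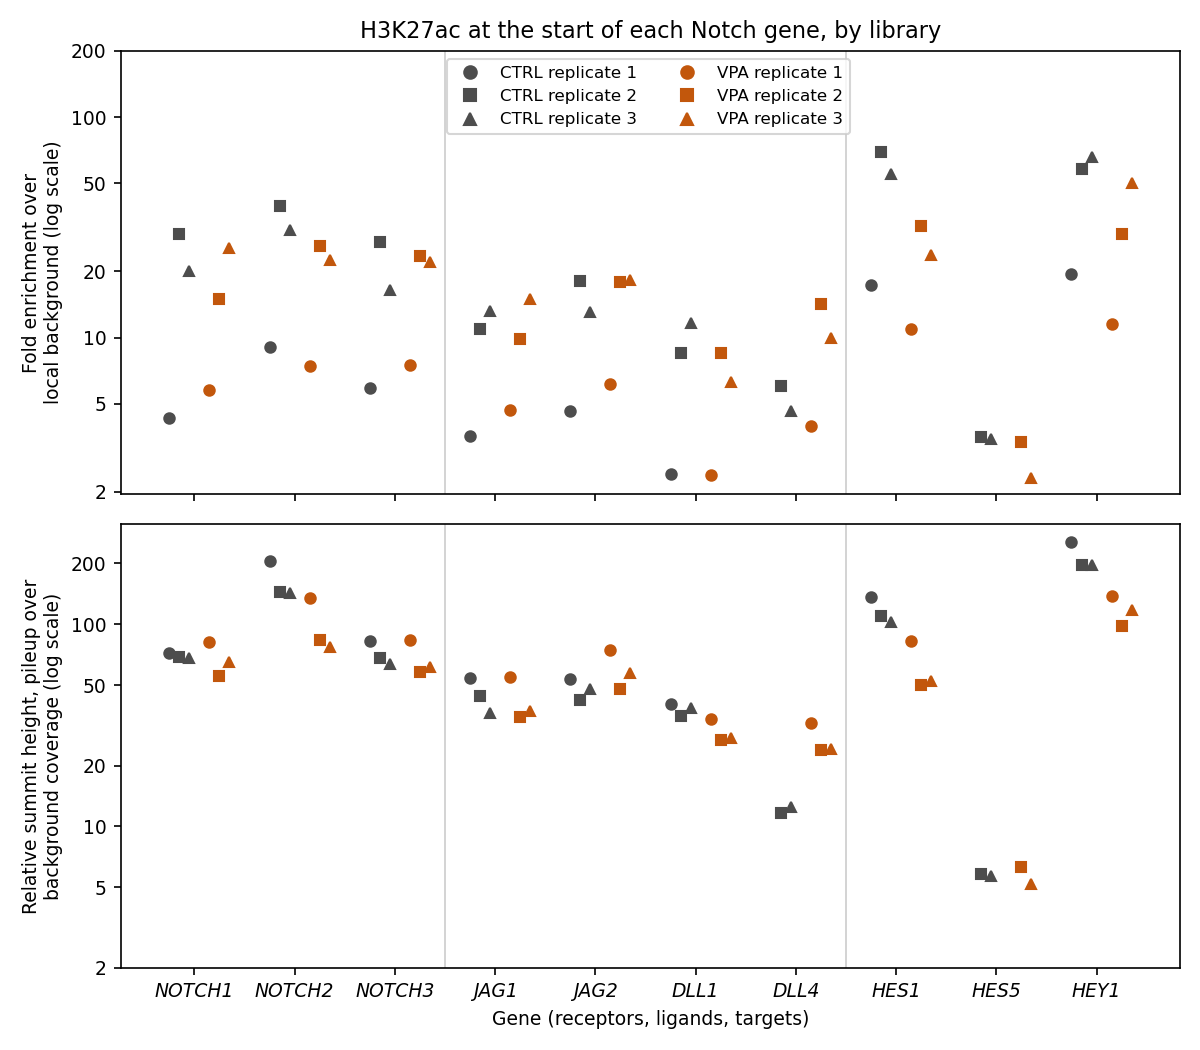
Fold enrichment (upper panel) and relative summit height (lower panel) of H3K27ac at the start of the canonical transcript of each gene, both on log axes, with 1 point per library. At NOTCH2, DLL1, HES1 and HEY1 the 3 VPA heights lie below the 3 CTRL heights, as in 28.2% of all regions tested. The HES1 point of CTRL replicate 1 is a peak of the same region with its summit 5.05 kb past the start. At DLL4 the 3 VPA heights (23.8 to 32.6) lie above the 2 CTRL heights (11.6 and 12.5), and at NOTCH1, NOTCH3, JAG1 and JAG2 the groups overlap.

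Acetylation at the target HES1 was about 2-fold lower after VPA. Its region, chr3:194132999-194144149, was 11.2 kb wide, reached from upstream of the promoter printed above to beyond the end of the gene, and was wider than 99.6% of the regions tested. Fold enrichment was 17.4, 69.3 and 55.0 in CTRL replicates 1, 2 and 3 and 10.9, 32.2 and 23.7 in the VPA replicates. Both replicate 1 libraries held 4 separate peaks here, none of them over the start itself. The fold of 17.4 and the height of 136 given below belong to a CTRL replicate 1 peak with its summit at 5.05 kb. That library's peak at -1.58 kb, near the summits of all other libraries, had a fold of 16.7. VPA was lower within each replicate number, although VPA replicate 2 lay above CTRL replicate 1. By fold the log2 change was -1.0 (95% interval -1.41 to -0.58). Its adjusted p in limma was 0.00446 with the replicate block and 1.0 without it, and between 1.84e-09 and 1.0 over all alternatives. The lowest value came from relative summit height with replicates 2 and 3 alone, where 44.1% of all regions were called lower. That setting was chosen after seeing the data. On the scale of relative summit height the groups did not overlap, at 136, 110.0 and 102 in CTRL and 82.4, 49.9 and 52.4 in VPA. Every VPA height lay below every CTRL height in 28.2% of all regions tested. The length of the window under peaks did not fall with the height, at 7.28, 9.62 and 10.0 kb in CTRL and 7.38, 10.7 and 10.7 kb in VPA. With replicates 2 and 3 alone, a setting chosen after seeing the data here and below, the log2 change was -1.16 and the adjusted p in limma 0.00518.

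HEY1, a related repressor and the gene of the strongest acetylated region among the members, had a region of 9.48 kb at chr8:79762634-79772114 that covered nearly the whole gene. In CTRL its fold enrichment was 19.5, 57.9 and 65.8, and in VPA 11.5, 29.5 and 50.1. Each VPA library was lower than the CTRL library of its number, with a log2 change of -0.71 (95% interval -1.12 to -0.29). By fold, limma gave an adjusted p of 0.0233 with the block and 1.0 without it, and between 1.36e-08 and 1.0 over all alternatives. The lowest value again came from relative summit height with replicates 2 and 3 alone, where 44.1% of all regions were called lower. Relative summit heights were 256, 197 and 197 in CTRL and 138, 97.7 and 118 in VPA, so that the groups did not overlap, again as in 28.2% of all regions. Without replicate 1 the call was lost, at a log2 change of -0.68 and an adjusted p of 0.0992.

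Regions of high rank and wide regions were called lower more often than the 11.8% of all regions. The 18407 regions were divided into 10 equal classes by their mean rank in the peak lists. Under the block, 41.1% of class 10 (the highest ranks, with HEY1) were called lower, and 15.8% of class 8, with HES1. By width both regions belonged to class 10, where 30.0% were called lower. Among the log2 changes of all regions tested, that of HES1 lay at percentile 1.62 and that of HEY1 at percentile 8.06.

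HES5 differed from both other targets in having hardly any acetylation. Its start region, chr1:2529062-2530240, carried a peak only in replicates 2 and 3, with fold enrichments of 3.54 and 3.48 in CTRL and 3.35 and 2.31 in VPA. A second small region upstream of the start had a peak in VPA replicate 3 alone, at a fold of 3.15. The taller region of its window, chr1:2522990-2527160, lay over the start of the neighbouring gene PANK4, at folds of 10.3, 32.2 and 21.9 in CTRL and 10.9, 25.4 and 17.7 in VPA. That region was not called (log2 change -0.19, 95% interval -0.61 to 0.23 and adjusted p 0.532 with the block).

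**Figure D2:**
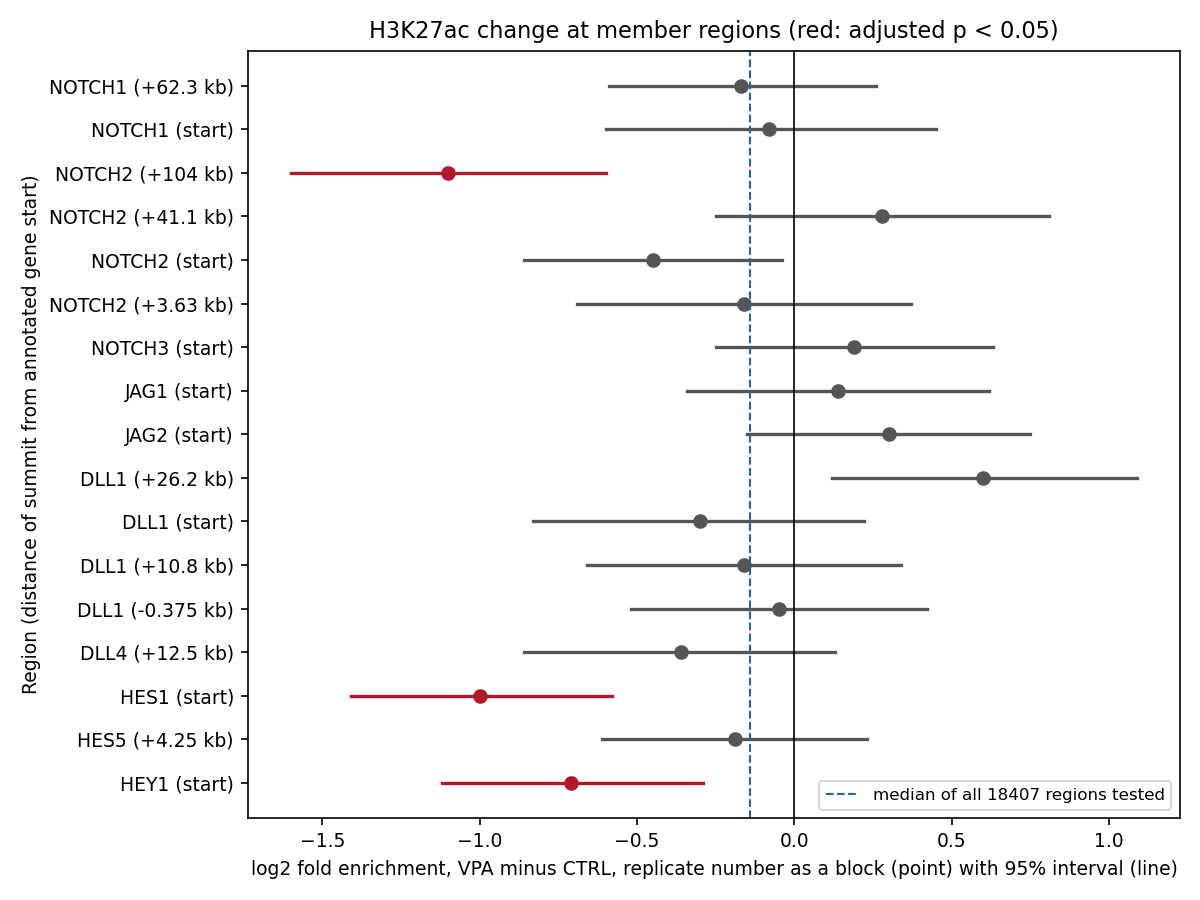
Log2 change of H3K27ac fold enrichment, VPA minus CTRL, with the replicate number as a block (points) and 95% intervals (lines) for the 17 member regions with a peak in all 6 libraries. Red marks the 3 regions with an adjusted p under 0.05, which lie at -1.10 (NOTCH2), -1.0 (HES1) and -0.71 (HEY1), and the dashed line marks the median of all regions at -0.14.

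Of the ligands, DLL4, a ligand best known from endothelial cells, had a taller acetylated region at its start after VPA when replicates 2 and 3 were compared. This region, chr15:40927937-40931190, had no peak in CTRL replicate 1 and folds of 6.01 and 4.66 in CTRL replicates 2 and 3. In the VPA replicates the folds were 3.96, 14.2 and 9.91, the first of them below both CTRL folds. The relative summit heights were 11.6 and 12.5 in CTRL replicates 2 and 3 and 32.6, 23.8 and 24.0 in VPA, so that every VPA height exceeded both CTRL heights. Since 1 library had no peak, the region could not enter the tests over 6 libraries. With replicates 2 and 3 alone, a setting chosen after seeing the data, 2.79% of 22651 regions were called higher and 6.19% lower. The DLL4 start region was the one member region called higher there. Its log2 change was then 1.17 (SE 0.32) and its adjusted p 0.0195 in limma, and between 1.56e-05 and 0.601 over the alternatives in which it could be fitted. The lowest value came from relative summit height with the same replicates, where 11.5% of all regions were called higher and 44.1% lower. By fold with these replicates, 2 member regions were called lower, those of HES1 and of the NOTCH2 intron. Peaks at the DLL4 start were also longer, and the covered length of its window was 0.538, 2.85 and 2.01 kb in CTRL and 2.46, 4.64 and 4.47 kb in VPA (exact permutation p = 0.2, two-sided, n = 3 and 3). A second DLL4 region, downstream of the gene at chr15:40941104-40942612, had folds of 2.80, 8.17 and 7.84 in CTRL and 2.06, 6.68 and 6.12 in VPA, lower within each replicate number, and was not called (log2 change -0.36, 95% interval -0.86 to 0.13 with the block). The endothelial genes PECAM1 and CDH5 had no H3K27ac peak at their starts in any of the 6 libraries.

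**Figure D3:**
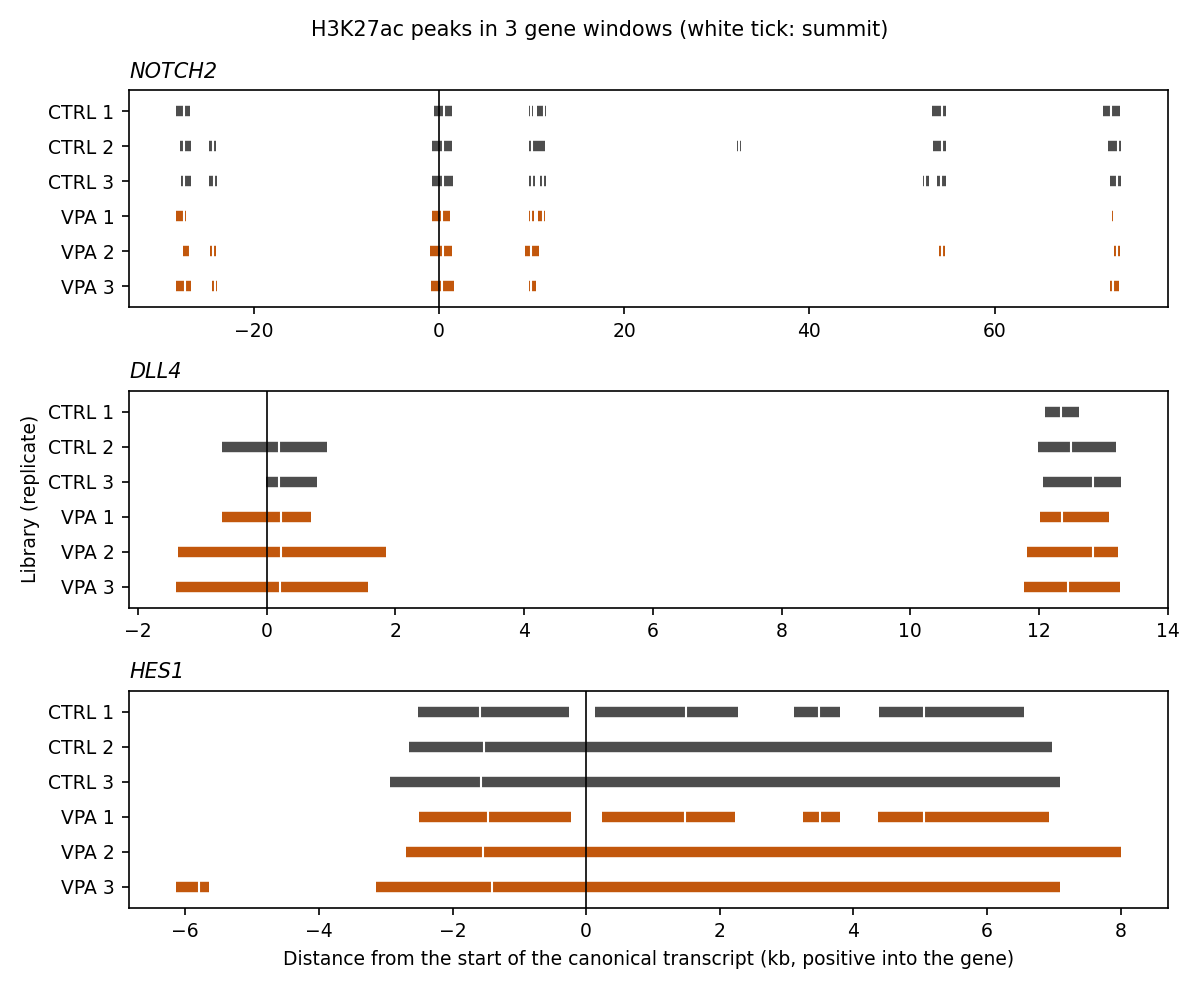
H3K27ac peaks of each library (bars, grey for CTRL and orange for VPA) against the distance from the start of the canonical transcript in kb, for NOTCH2, DLL4 and HES1. The DLL4 start is bare in CTRL replicate 1 and its bars are longest in VPA replicates 2 and 3, the HES1 region keeps its extent, and the NOTCH2 peak beyond 70 kb is narrower in VPA.

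By fold enrichment, no start region of the other ligands was called with or without the block. By relative summit height with the block, a setting chosen after seeing the data, 11.1% of all regions were called higher and 51.8% lower. In that setting the JAG2 start was called higher (adjusted p 0.018 in limma) and the canonical and annotated DLL1 starts lower (0.0127 and 0.00299). JAG1, whose loss causes Alagille syndrome, had 1 acetylated region at chr20:10673026-10675084, with folds of 3.59, 10.9 and 13.2 in CTRL and 4.69, 9.83 and 15.0 in VPA. Its log2 change was 0.14 (95% interval -0.34 to 0.62 with the block), and its relative summit heights gave -0.10. JAG2 had folds of 4.63, 18 and 13.0 in CTRL and 6.17, 17.8 and 18.3 in VPA at its start, chr14:105166417-105170222. The log2 change there was 0.30 (95% interval -0.15 to 0.75, adjusted p 0.35 with the block). A weaker JAG2 region in intron 2 was present in replicates 2 and 3 only, at folds of 2.65 and 2.12 in CTRL and 4.03 and 4.50 in VPA. With those replicates alone its log2 change of 0.84 missed the threshold (adjusted p 0.0694).

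DLL1 has an annotated gene start 15.5 kb upstream of the start of its canonical transcript, so both places were described, the canonical one after its values were seen. The region over the canonical start, chr6:170289240-170291945, had folds of 2.40, 8.51 and 11.6 in CTRL and 2.39, 8.48 and 6.26 in VPA (log2 change -0.30, 95% interval -0.83 to 0.22 with the block). The region over the annotated start, chr6:170305831-170308158, was taller and lies also at the start of FAM120B. Its folds were 8.74, 30.5 and 19.0 in CTRL and 8.33, 19.9 and 27.8 in VPA, at a log2 change of -0.05. A region downstream of DLL1, chr6:170279429-170281267, was higher in VPA within each replicate number, with folds of 2.29, 8.42 and 5.70 in CTRL and 3.51, 11.7 and 9.42 in VPA. Its log2 change was 0.60 (95% interval 0.12 to 1.09) and its adjusted p 0.0798 with the block, and between 0.000744 and 1.0 over all alternatives. The lowest value came from relative summit height with replicates 2 and 3 alone, where 11.5% of all regions were called higher. This downstream region was the 1 member region of 17 in which every VPA relative summit height exceeded every CTRL height, at 30.9, 26.9 and 26.2 in CTRL and 43.5, 40.0 and 38.0 in VPA. Over the genome this held for 9.89% of regions, and the reverse for 28.2%. At the members the reverse held for 7 of 17 regions, at NOTCH1 (1 region), NOTCH2 (3), DLL1 (1), HES1 (1) and HEY1 (1). The NOTCH1 region counted here is not at its start but lies 62.3 kb away, over the start of SEC16A. By fold enrichment the corresponding shares of all regions were 4.53% above and 1.56% below, and of the member regions 0 and 1, the latter in NOTCH2.

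Among the receptors, the start regions of NOTCH1 and NOTCH3 were not called, and their groups overlapped on both scales. At the NOTCH1 start, chr9:136544442-136547723, the folds were 4.34, 29.5 and 20.1 in CTRL and 5.78, 15.0 and 25.4 in VPA (log2 change -0.08, 95% interval -0.60 to 0.45 with the block). At the NOTCH3 start, chr19:15199597-15201452, they were 5.90, 27.1 and 16.4 in CTRL and 7.50, 23.5 and 22 in VPA. The NOTCH3 log2 change was 0.19 by fold (95% interval -0.25 to 0.63 with the block) and -0.09 by relative summit height. A second region of the NOTCH1 window, chr9:136479953-136485599, lay over the start of the neighbouring gene SEC16A, with folds of 6.53, 25.8 and 25.2 in CTRL and 6.86, 23.2 and 18.8 in VPA.

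NOTCH2 was the only member whose window had a shorter length under H3K27ac peaks in every VPA library than in every CTRL library. The called region, chr1:119996035-119997979, lies in intron 4 of the canonical transcript and 104 kb from the annotated gene start. Its folds were 10.6, 6.51 and 7.76 in CTRL and 4.28, 3.84 and 3.32 in VPA, so that the groups did not overlap. By fold the log2 change was -1.10 (95% interval -1.60 to -0.60), with an adjusted p of 0.00736 with the block and 1.0 without it in limma, and between 1.15e-06 and 1.0 over all alternatives. The lowest value came from relative summit height with replicates 2 and 3 alone, where 44.1% of all regions were called lower. The called region was weak, in class 1 of the 10 by mean rank, where 1.90% of all regions were called lower with the block. With replicates 2 and 3 alone the log2 change was -0.99 and the adjusted p 0.0425.

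At the start of the canonical NOTCH2 transcript, which lies 31.1 kb downstream of the annotated gene start, the region chr1:120068035-120070581 had folds of 9.09, 39.5 and 30.7 in CTRL and 7.41, 25.9 and 22.5 in VPA. Each VPA library was lower than the CTRL library of its number, and the adjusted p was 0.114 with the block (log2 change -0.45, 95% interval -0.86 to -0.04). Relative summit heights there were 204, 144 and 143 in CTRL and 135, 83.0 and 77.0 in VPA, without overlap, as in 28.2% of all regions. On that scale the region was called lower with the block (log2 change -0.76), as were 51.8% of all regions. That setting was chosen after seeing the data. The adjusted p of the region in limma lay between 1.82e-08 and 1.0 over all alternatives, the lowest again from relative summit height with replicates 2 and 3 alone. This canonical start was chosen after its values were seen, and within 1 kb of the annotated start there was no H3K27ac region. The first exons of NOTCH2 have near-identical copies in the NOTCH2NL genes on the same chromosome. Of all 50-base words in the 8 acetylated NOTCH2 regions, between 70.3% and 95.6% per region occurred again on chromosome 1 between 119 and 150 Mb, and 70.3% in the called region. How reads with more than 1 place in the genome were treated is not given in the sources used here, so the NOTCH2 values may include reads of those copies.

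**Figure D4:**
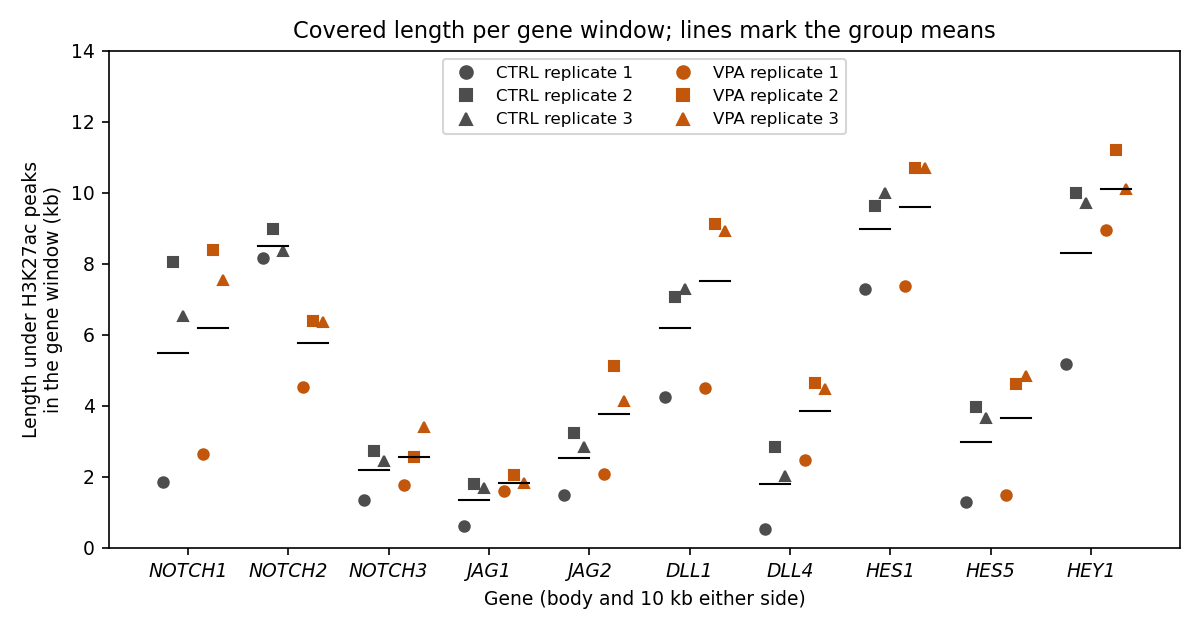
Length under H3K27ac peaks in each gene window in kb, with 1 point per library and lines at the group means. NOTCH2 is the 1 gene whose VPA libraries (4.53, 6.38 and 6.37 kb) all lie below its CTRL libraries (8.15, 8.97 and 8.37 kb), and in 8 of the 9 others each VPA library exceeds the CTRL library of its number.

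The covered length of the NOTCH2 window was 8.50 ± 0.423 kb in CTRL and 5.76 ± 1.07 kb in VPA (SD, n = 3 each, exact permutation p = 0.1, two-sided, the smallest that 3 against 3 can give). Among the 16034 genes with an H3K27ac peak in any library, 0.187% had all VPA libraries below all CTRL libraries and 31.6% had them above, and of the other 9 members none was separated either way. Paired by replicate number, VPA was longer in all 3 pairs for 8 members, as for 73.7% of all genes. It was shorter in all 3 for NOTCH2 alone, as for 1.17% of genes. NOTCH3 was the member with no common direction. No window separated the groups by the number of peaks, where 12.1% of genes had more peaks in every VPA library and 0.175% fewer. The NOTCH2 window held 6, 7 and 8 peaks in the CTRL libraries against 5, 6 and 5 after VPA, fewer in each of the 3 pairs, which was true of 0.368% of genes, while 19.3% had more in each pair. Over all 10 windows the peaks numbered 22, 30 and 33 in CTRL and 28, 27 and 33 in VPA.

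CTCF regions at the 10 genes numbered 39, and 27 had a peak in all 6 libraries. Of these 27, 9 (33.3%) held a match to the CTCF core motif with at most 1 mismatch within 100 bp of the median summit, against 42.1% of all 27794 CTCF regions with a peak in all 6 libraries. At a distance of 2 kb the share of all these regions was 0.709%. Matches at NOTCH1, NOTCH3, JAG2 and DLL4 are shown because they mark CTCF sites of these genes with a peak in every library, with the 14 bases of the match in capitals and 8 bases on either side, in hg38 and on the strand of the motif.
NOTCH1, chr9:136485183-136485212, plus strand: ccacatcaCCTGCAGGGGGCGCggctgtct
NOTCH1, chr9:136530104-136530133, plus strand: gacagcggGCAGCAGGGGGCGGagttgggt
NOTCH3, chr19:15150595-15150624, minus strand: tcccatagCCACCAGAGGGCGTctgggaac
NOTCH3, chr19:15173950-15173979, minus strand: gcctttacCCACCAGATGTCAGgagcaccg
JAG2, chr14:105167605-105167634, minus strand: gggcggggCCGGCAGGGGGCGCgtgctctg
DLL4, chr15:40942018-40942047, plus strand: gctgcccgGCACTAGAGGGCGCtgcgcggc
Both NOTCH1 sites shown read on the plus strand, against the direction of the gene, and lie downstream of it (the first) and in intron 2. The site of JAG2 lies in intron 2, on the strand of the gene. NOTCH3 has sites downstream and in intron 25, and DLL4 has 1 downstream, again on the strand of the gene.

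No CTCF region of the genome was called in either direction (0% higher and 0% lower of 27794, with 254 at an unadjusted p under 0.05), so none of the 27 member regions was. Of the 27 member changes 21 were positive (77.8%, beside 48.6% of all regions). The median log2 change over the members was 0.23, against -0.02 over all regions. It was -0.09 without CTRL replicate 1 and 0.32 without VPA replicate 1, and with replicates 2 and 3 alone it was -0.04 over 34 regions. No region at the members was found in only 1 treatment, while over the genome 130 of 69985 CTCF regions were specific to VPA in this sense and 228 to CTRL.

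**Figure D5:**
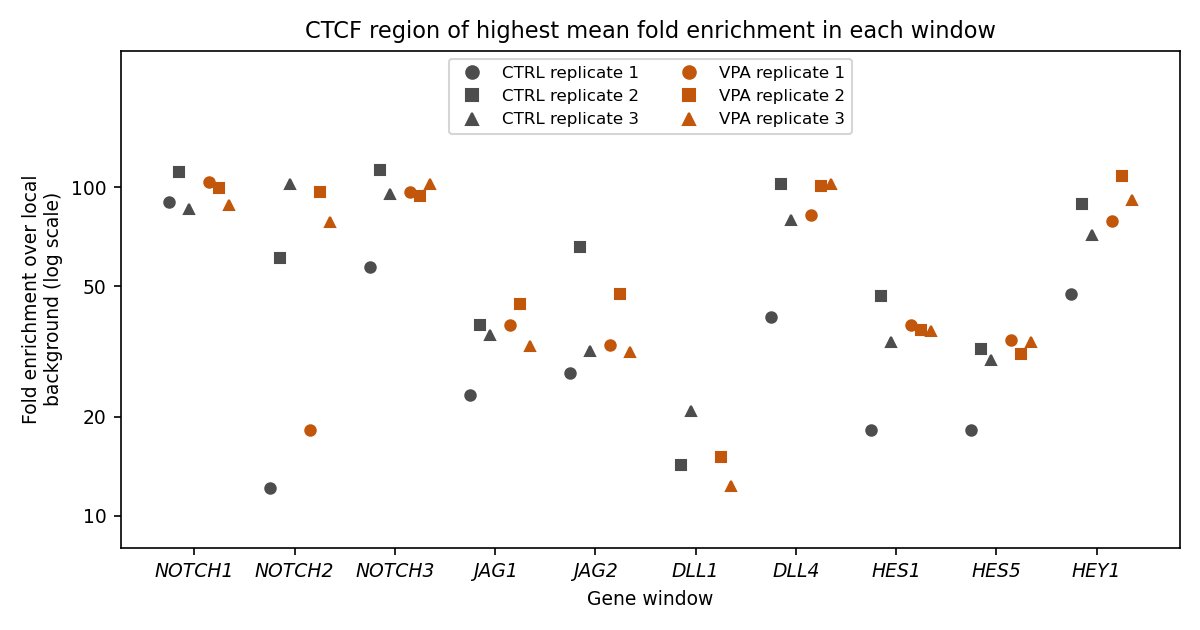
Fold enrichment on a log axis of the CTCF region with the highest mean fold in each gene window, with 1 point per library. CTRL and VPA overlap at all 10 genes, and CTRL replicate 1 is the lowest CTRL library at 8 of the 9 genes where it has a peak, NOTCH1 being the exception.

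The strongest CTCF regions of NOTCH1 and NOTCH3 ranked high in the peak lists, at mean percentile ranks of 95.9 and 97.9. That of NOTCH2 had a mean rank of 77.9, with 43.3 in CTRL replicate 1 and 59.3 in VPA replicate 1. At NOTCH3 the region in coding exon 24, chr19:15176614-15178238, had folds of 57.0, 113 and 95.3 in CTRL and 96.9, 93.7 and 102 in VPA (log2 change 0.20, 95% interval -0.53 to 0.93). In the strongest CTCF region of the NOTCH1 window, downstream of the gene, the folds were 89.9, 111 and 86.1 in CTRL and 104, 99.7 and 88.3 in VPA (log2 change 0.03, 95% interval -0.53 to 0.59). In the strongest CTCF region of NOTCH2 they were 12.2, 60.7 and 102 in CTRL and 18.2, 96.5 and 78.3 in VPA (log2 change 0.29, 95% interval -1.93 to 2.50). The groups overlapped in each of these regions.

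For the ligands, the strongest CTCF region of JAG1 lay just upstream of its start, chr20:10674164-10675303, at folds of 23.4, 38.2 and 35.4 in CTRL and 38.0, 44.2 and 32.9 in VPA (log2 change 0.27, 95% interval -1.09 to 1.62). JAG2 likewise had its own just upstream, chr14:105168718-105169752, at 27.2, 65.9 and 31.8 in CTRL and 33.2, 47.4 and 31.6 in VPA (log2 change -0.07, 95% interval -1.52 to 1.38). That of DLL1, chr6:170292749-170293416, was absent in both replicate 1 libraries and had folds of 14.3 and 20.8 in CTRL and 15.1 and 12.3 in VPA. DLL4 had 2 strong regions. The one downstream, at the printed site, had folds of 40.4, 102 and 79.5 in CTRL and 82.1, 101 and 102 in VPA (log2 change 0.46, 95% interval -0.48 to 1.39). The other covered the acetylated start, chr15:40929048-40931184, and was the 1 member region of 27 with all VPA folds (64.2, 79.1 and 66.9) above all CTRL folds (42.4, 52.5 and 44.3). Of all CTCF regions, 3.87% were separated in this direction and 2.24% in the other. Its log2 change was 0.59 (95% interval -0.43 to 1.62) and its adjusted p 1.0. The relative summit heights of the same region overlapped, at 344, 164 and 150 in CTRL and 559, 166 and 147 in VPA, and no member region was separated on that scale (0.288% of all regions above and 1.85% below).

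The targets had CTCF inside the gene or close by. In HES1 the single CTCF region, chr3:194137578-194138398 in coding exon 4, lay within the acetylated region that was lower in VPA, and had folds of 18.2, 46.8 and 33.7 in CTRL and 38.1, 36.7 and 36.4 in VPA (log2 change 0.28, 95% interval -1.17 to 1.72). In HEY1 a region in coding exon 5, chr8:79764964-79765915, had folds of 47.3, 89.0 and 71.4 in CTRL and 78.9, 108 and 91.5 in VPA (log2 change 0.46, 95% interval -0.38 to 1.30). HES5 had its strongest 9.23 kb upstream, chr1:2538958-2540065, at 18.3, 32.3 and 29.9 in CTRL and 34.3, 31.2 and 33.9 in VPA (log2 change 0.35, 95% interval -1.02 to 1.71). No member window separated the groups by CTCF peaks (0.39% of 16918 genes above and 0.875% below) or by CTCF covered length (1.26% above and 1.86% below). Over the 10 windows the peaks numbered 27, 38 and 36 in CTRL and 32, 38 and 34 in VPA.

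A further 46 genes of the pathway (proteases, coactivators, corepressors, ligand ubiquitin ligases, glycosyltransferases and other HES and HEY genes) had 91 H3K27ac regions with a peak in all 6 libraries. With the block, 6 of these were called higher in VPA (6.59%, beside 4.73% of all regions) and 14 lower (15.4%, beside 11.8%), at a median log2 change of -0.08. The 14 lower regions belonged to 13 genes and the 6 higher ones to 6 genes. Except for RBPJ, the genes named next were taken by highest mean rank, and none of the 6 higher regions is named. In the top class of all regions by mean rank, 41.1% were called lower and 0% higher, so this choice favours lower regions. TLE3, a Groucho corepressor that HES proteins recruit, had folds of 19.5, 81.6 and 71.2 in CTRL and 14, 23.6 and 31.0 in VPA at its start (log2 change -1.15, adjusted p 0.00437 in limma with the block). Its relative TLE1 had folds of 19.7, 58.5 and 55.3 in CTRL and 11.7, 24.8 and 28.8 in VPA (log2 change -0.97, adjusted p 0.00472 in the same fit). SPEN, a corepressor that binds RBPJ, was lower at its start (log2 change -0.84, adjusted p 0.0124 in limma with the block), as was NCOR1 (-0.86). The start of HES4 (-0.70), a region inside MAML3 near its start (-0.88) and one at the canonical start of MIB1, a ubiquitin ligase of Notch ligands (-0.65), were also called lower. So was a region in the window of RBPJ itself, named here after its values were seen, with folds of 19.1, 54.5 and 53.6 in CTRL and 17.2, 21.8 and 28.5 in VPA (log2 change -0.80, adjusted p 0.0222 in the same fit).

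Of the 259 H3K27ac regions of these 46 genes, 9 were found only in VPA, in 8 genes, and none only in CTRL. Over the genome 2284 of 55382 regions were found only in VPA and 77 only in CTRL, so the pathway did not stand out. Of these 9 regions, those of MIB1 and HES3 had the highest mean folds, with folds of 5.40, 5.15 and 3.92 and of 2.51, 5.32 and 4.68 in the VPA replicates. CTCF regions of the pathway numbered 165, of which 2 were found only in CTRL, both in MAML2, and none only in VPA. Over the genome 228 of 69985 CTCF regions were found only in CTRL and 130 only in VPA. By fold enrichment without the replicate block, no region of the pathway was called for either antibody, with 2 at an unadjusted p under 0.05 in each.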

How the data were processed

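ChIP-seq peak lists of 12 libraries were used: 3 replicates of CTRL and VPA for H3K27ac and for CTCF, grouped by their labels. The 6 input libraries were not analysed here. The authors aligned paired-end reads to hg38 with Bowtie2 and called peaks with MACS (3.0.0a7 per the submitters' processing notes) at a q-value of 0.05, library by library. Use of the inputs and handling of duplicates are not given in the sources used here. The deposited lists give the fold enrichment (a ratio) of each summit over its local background. They also give its −log10 p-value and −log10 q-value and a score derived from the q-value, as deposited by the authors. The study's own method for differential peaks needs reads and could not be run.

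Peaks of an antibody sharing 1 bp were merged into regions. The highest fold per library was tested on the log2 scale with limma 3.58.1 (R 4.3.3) over all regions with a peak in all 6 libraries, with Benjamini-Hochberg adjustment and a threshold of 0.05. A region's rank is the percentile of its −log10 q-value in the list. Summit pileups were recovered from the fold and the p-value as whole numbers in 100% of peaks (CTCF CTRL replicate 1: 99.9975%) within 0.05, and divided by the lowest local background of the library (3.51 to 3.95 fragments), which served as relative depth. Peaks and covered length per gene window were compared by exact permutation tests, two-sided, which cannot go below 0.1 with 3 against 3 or 0.25 in pairs. The scripts were tested on simulated data. Deviations from the group means correlated within replicate numbers 1, 2 and 3 at 0.865, 0.585 and 0.591 for H3K27ac fold, so its numbers were taken to pair the libraries, although replicates 2 and 3 could not be told from each other (0.607 and 0.554 across numbers). For CTCF they were 0.34, -0.0451 and 0.477, and the numbers were not taken to pair.

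Genes are from GENCODE 44. Named regions were those within 1 kb of the annotated start, those in only 1 treatment, those called, and the CTCF region of highest mean fold. For the other pathway genes, values are given for at most 8, taken by mean rank among those with such a region. One of these genes and some CTCF motif matches are not reported here. The members and lists were chosen with earlier results of these data known.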

Additional observations from a re-analysis of the deposited data

How the results depend on the processing

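Depth is known only through the background coverage, and a region missing from a list may lie just under the caller's threshold. By fold enrichment without the replicate block, 0 member H3K27ac regions were called. By fold there were also 0 when medians were centred, with −log10 q of at least 3, with summits in the shared core, and without any 1 library. The replicate block called 3 (0 higher and 3 lower, beside 871 and 2169 of all 18407 regions). Summit pileup without the block called 4 (0 higher and 4 lower, beside 673 and 2158). Pileup with the replicate block called 12 (2 higher and 10 lower, beside 2048 and 9535). Replicates 2 and 3 alone called 3 (1 higher and 2 lower, beside 633 and 1402 of 22651). Pileup with replicates 2 and 3 alone called 13 (4 higher and 9 lower, beside 2595 and 9981). The last 3 of these settings and all others with replicates 2 and 3 alone were chosen after seeing the data. The causes were not tested. No CTCF member region was called under any of these settings, the replicate block included.

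H3K27ac windows separated by peaks numbered 0, but 1 (NOTCH2, fewer) with equal list lengths, under the replicate block and with replicates 2 and 3 alone, and 0 to 2 without 1 library (1 without CTRL replicate 1, and 2 without VPA replicate 2, when HEY1 had more). By covered length the count of 1 became 2 with 25 kb on either side (NOTCH3 added), 9 under the replicate block, 8 with replicates 2 and 3 alone, and 1 to 8 without 1 library (8 without VPA replicate 1, 2 without CTRL replicate 2). Under the block, 73.7% of all genes were longer in VPA in all 3 pairs and 1.17% shorter. CTCF covered length separated 2 windows with replicates 2 and 3 alone and 0 to 2 without 1 library (2 without CTRL replicate 1, 1 without CTRL replicate 2 and 1 without VPA replicate 3). Apart from the main setting and the H3K27ac block, the share of all genes separated was not computed. The window counts of the other settings are therefore not results about the members in particular. Regions in only 1 treatment stayed at 0 with −log10 q of at least 3 and with replicates 2 and 3 alone.

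The log2 changes at HES1, HEY1 and the NOTCH2 intron kept their sign throughout. Without 1 library they ranged from -1.61 (without CTRL replicate 1) to -0.55 (without VPA replicate 1) at HES1, from -1.26 to -0.13 (without the same libraries) at HEY1, and from -1.26 to -0.91 at the NOTCH2 intron. The members' median H3K27ac change of -0.16 became 0.07 without CTRL replicate 2, 0.14 without CTRL replicate 3, 0.37 without VPA replicate 1 and -0.54 without CTRL replicate 1, and that of all regions took the same sign each time. On pileup the median change of all H3K27ac regions moved from -0.14 to -0.28. Uncalled changes near 0 turned sign. With medians centred, H3K27ac at NOTCH1 came to 0.01, at the annotated DLL1 start to 0.04, and CTCF at JAG2 to 0.05. On pileup, H3K27ac came to -0.09 at NOTCH3 and -0.10 at JAG1, with and without the replicate block, and to -0.14 and -0.15 with replicates 2 and 3 alone, when CTCF at JAG1 came to -0.06. By fold with replicates 2 and 3 alone, CTCF came to -0.06 at NOTCH1, -0.08 at NOTCH3 and -0.12 at HES1. Without 1 library, H3K27ac ranged from -0.90 to 0.51 at NOTCH1, -1.10 to 0.12 at the canonical NOTCH2 start, -0.42 to 0.72 at NOTCH3, -0.44 to 0.60 at JAG1, -0.28 to 0.81 at JAG2, -0.99 to 0.23 at the canonical and -0.54 to 0.45 at the annotated DLL1 start. CTCF ranged from -0.04 to 0.14 at NOTCH1, -0.61 to 1.04 at NOTCH2, -0.09 to 0.40 at NOTCH3, -0.32 to 0.32 at JAG2 and -0.10 to 0.58 at HES1.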

Other observations

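CTCF regions inside NOTCH2 differed between replicate 1 and the other libraries more than between treatments. In the strongest of them the relative summit heights were 15.3 and 22.8 in the replicate 1 libraries and 207 to 232 in replicates 2 and 3. In intron 16, at chr1:119948156-119949247, they were 17.8 and 27.2 against 226 to 251. At HEY1 and DLL4 the order was the reverse, with 580 and 937 in replicate 1 against 242 to 289 at the HEY1 site, and 542 and 863 against 222 to 259 downstream of DLL4. None of the 50-base words of these CTCF regions of NOTCH2 occurred again in the stretch of chromosome 1 searched, unlike those of its acetylated regions.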
